A study of Sus scrofa with 30 samples.

Results

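The let-7 family was described in small RNA libraries of porcine endometrium, the inner lining of the uterus. Of the 873 sequences that the study had annotated as microRNAs (miRNAs) or as their length variants (isomiRs), 55 carried a name with the root let-7a, let-7c, let-7d, let-7e, let-7f, let-7g, let-7i or miR-98, and these 55 made up the family here. Within this list members were taken by name. The list itself held only sequences that reached a minimum of reads in most libraries of at least 1 group, so that forms too scarce everywhere are not among the 55. Of the 55 sequences, 51 came from the 5p arm of the hairpin and 4 from the 3p arm (let-7a, let-7d, let-7g and let-7i). The 7 sequences named let-7b lay outside this choice and are given only for comparison.

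The animals were Hampshire x Duroc crossbred gilts of a single commercial herd, 7 to 8 months old, with no transgene or drug in any group. Endometrium was taken after slaughter on day (D) 12, 16 or 20, from 5, 5 and 6 pregnant gilts (PD12, PD16, PD20) and from 4, 5 and 5 cyclic gilts (CD12, CD16, CD20), so that 30 libraries of 30 animals were available. Conceptuses were flushed out of the horns up to D16. On D20 of pregnancy the tissue came from the implantation sites, once trophoblast and embryos had been dissected away. The site of sampling thus goes with PD20, and cannot be told apart from day or status in comparisons with PD20. Libraries held 2029729 to 6402731 reads (median 3111079), of which 75.3 to 87.2% fell on the 873 annotated sequences. Levels are given as normalized reads, which are CPM (counts scaled to a common total of annotated reads) after TMM scaling, a factor per library that aligns the bulk of sequences. The tissue is a mixture of epithelium, stroma, vessels and blood, so that fewer cells of a type and less RNA per cell cannot be told apart.

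A miRNA is cut from a hairpin precursor by Drosha in the nucleus and Dicer in the cytoplasm, and guides an Argonaute protein to messenger RNAs that pair with its seed, the bases 2 to 8 counted from the 5′ end. let-7 was found in nematodes as a switch of developmental timing. In mammals it is encoded by many gene copies, accumulates as cells differentiate, and lowers the output of growth-promoting genes such as LIN28, HMGA2 and RAS. LIN28 in turn binds let-7 precursors and leads to their uridylation and decay. In epithelia and uterine tissue let-7 miRNAs are among the abundant small RNAs.

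The 5p reference sequences of the 8 roots are shown because they are the same in the seed and are told apart by few bases outside it. All were 22 nt long, and capitals mark the seed.
let-7a 5p: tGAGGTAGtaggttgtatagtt
let-7c 5p: tGAGGTAGtaggttgtatggtt
let-7d 5p: aGAGGTAGtaggttgcatagtt
let-7e 5p: tGAGGTAGgaggttgtatagtt
let-7f 5p: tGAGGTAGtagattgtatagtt
let-7g 5p: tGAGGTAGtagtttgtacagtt
let-7i 5p: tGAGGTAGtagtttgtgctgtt
miR-98 5p: tGAGGTAGtaagttgtattgtt

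Counted from the 5′ end of let-7a, let-7c differed by A19G, let-7e by T9G and let-7f by G12A. let-7d differed by T1A and T16C, let-7g by G12T and T18C, and miR-98 by G11A and A19T. let-7i differed most from let-7a, by G12T, A17G, T18C and A19T. The seed GAGGTAG was shared by 44 of the 55 sequences, which held 99.8% of the reads of the family. The pig entry of let-7i was named on a 19-nt sequence of only 9.14 ± 4.26 normalized reads (SD, n = 30), and the 22-nt sequence above was therefore used as the let-7i reference.

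The 3p references are shown because their seeds differ between roots, unlike those of the 5p arm. Capitals again mark bases 2 to 8.
let-7a 3p: cTATACAAtctactgtctttct
let-7d 3p: cTATACGAcctgctgcctttct
let-7g 3p: cTGTACAGgccactgccttgc
let-7i 3p: cTGCGCAAgctactgccttgct

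In the pig annotation of RefSeq (assembly Sscrofa11.1, used for neighbours only) let-7a-2, let-7f-2 and let-7d lay next to each other. let-7e lay next to miR-125a and miR-99b, let-7a-1 next to miR-125b-1 and miR-100, let-7c next to miR-99a, and miR-98 next to let-7f-1. let-7g had miR-135-1 as its neighbour, and let-7i had no miRNA gene beside it. A read of a mature let-7 sequence cannot be assigned to one of several gene copies that encode it.

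Before the levels are described, 2 libraries have to be set apart. The list holds 1 let-7f sequence whose last base is read as C in place of T (T22C), and it is shown beside its reference because it marks these libraries.
let-7f 5p with C end: tGAGGTAGtagattgtatagtc

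This sequence had 2329 ± 985 normalized reads over the 30 libraries and was the 45th most abundant of all annotated sequences. It had 27.8 normalized reads in PD20 replicate 3 and 23.6 in CD16 replicate 3, against 1047 to 3909 in the other 28 libraries. The same was seen in roots whose C-ended sequence was not in the list. In the 28 libraries the median ratio of the C-ended to the reference sequence ran from 4.98% for let-7g to 7.83% for let-7c, whereas in PD20 replicate 3 it was 0.0616% for let-7f, 0.0936% for let-7a, 0.0672% for let-7g and 0.0776% for let-7i. In CD16 replicate 3 it was 0.0640%, 0.0489%, 0.0735% and 0.0648% for these roots. Sequences with A added after the last base were not low in either library, and stood at 7.37% and 5.21% of let-7f there. With A in place of the last T, let-7f stood at 2.17% in PD20 replicate 3 and 0.766% in CD16 replicate 3. The other 28 libraries ran from 1.05 to 1.97%. In CD16 replicate 3 this form was also below the other 28 libraries for let-7a, let-7g and let-7i. In PD20 replicate 3 it was above them for let-7a (3.43%) and within their range for let-7g and let-7i. The 2 libraries therefore lacked nearly all C ends of every abundant let-7 root, in different groups, and values without them are given beside the comparisons that they moved most.

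**Figure D1:**
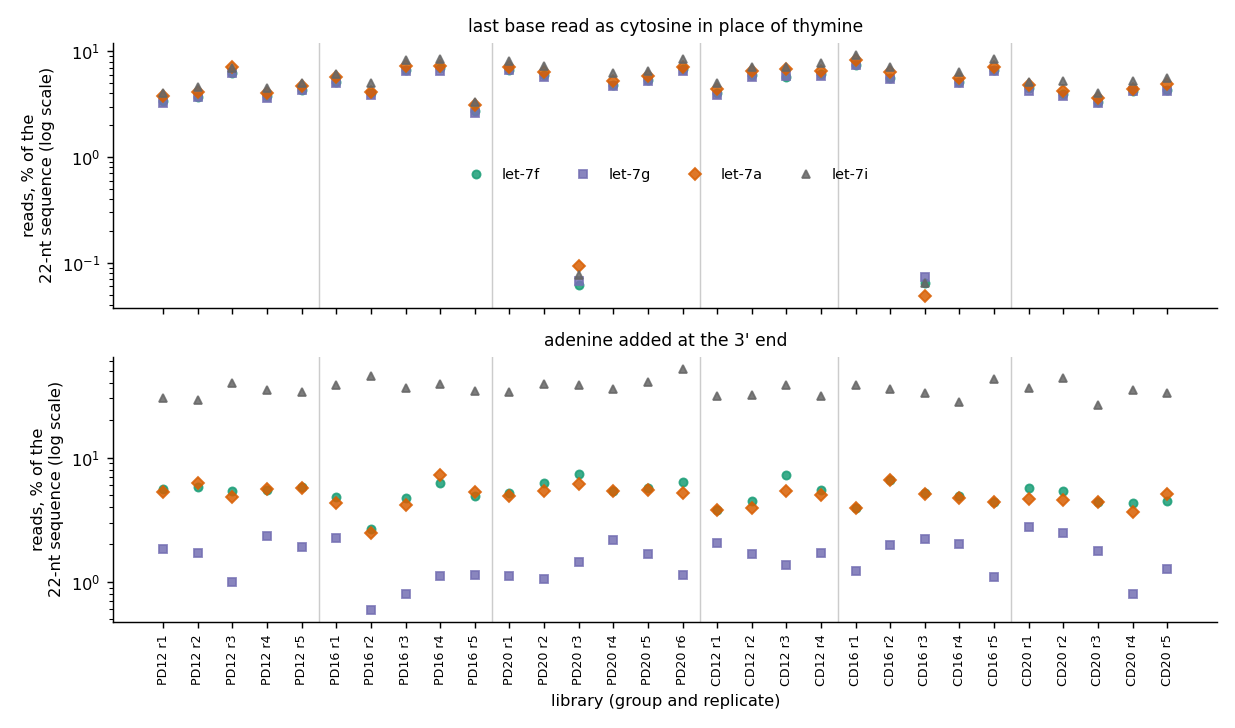
Reads of the 22-nt let-7f, let-7g, let-7a and let-7i sequences with the last base read as cytosine, and with adenine added, in percent of the reference sequence (y axes), for each of the 30 libraries ordered by group (x axes). PD20 replicate 3 and CD16 replicate 3 fall below 0.1% for the cytosine end of all 4 roots, while their added adenine is not low.

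let-7f 5p, encoded by 2 gene copies, was the most abundant member, with 48330 ± 9991 normalized reads (SD, n = 30), and the 7th of all 873 sequences. let-7g 5p, with a gene of its own, followed with 32335 ± 12120 and let-7i 5p, also from a gene of its own, with 16022 ± 7155. let-7a 5p had 10560 ± 4794.

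let-7f was above let-7g in 26 of 30 libraries, with a geometric mean ratio of 1.57, and let-7g was above let-7i in 27 of 30 with a ratio of 2.06. let-7i was above let-7a in 20 of 30 libraries only (ratio 1.51), so that their order was not fixed beyond the spread between animals. Below these 4 came let-7e 5p (405 ± 113). let-7a was above it in all 30 libraries, with a geometric mean ratio of 24.9. let-7e was above let-7c (314 ± 148) in 24 of 30 libraries, let-7c was above miR-98 (130 ± 52.1) in 29, and miR-98 was above let-7d 5p (70.5 ± 14.4) in 30. All 5p references have the same length, so that length does not enter the comparison of these levels. Whether each sequence was captured equally well in the libraries was not measured.

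**Figure D2:**
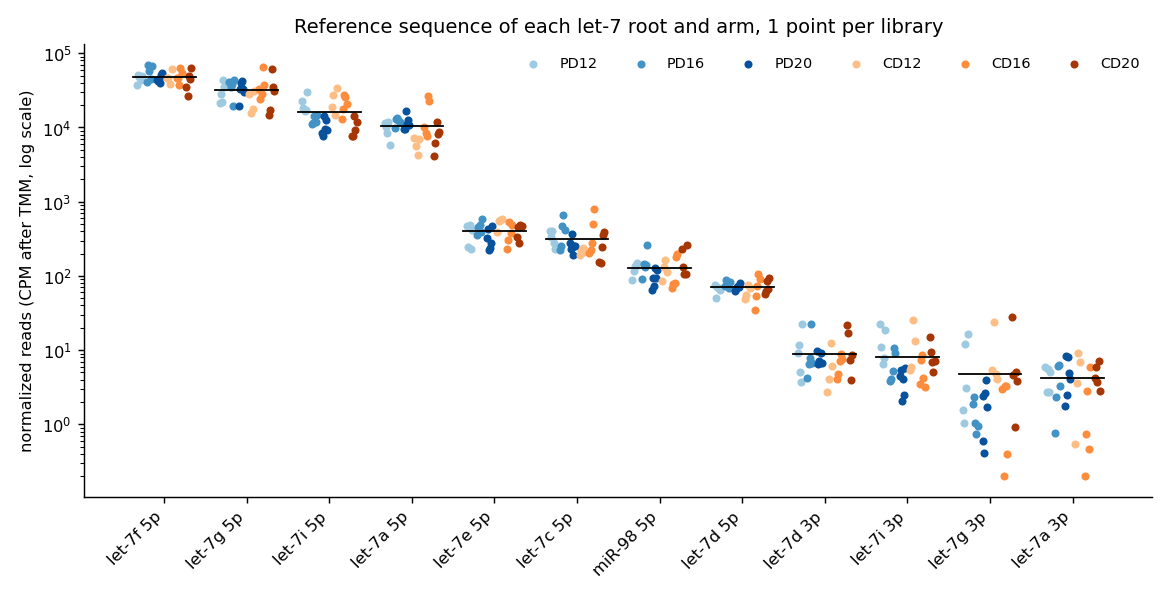
Normalized reads of the 12 reference sequences (y axis, log scale), with 1 point for each of the 30 libraries. The 4 abundant 5p sequences let-7f, let-7g, let-7i and let-7a lie about an order of magnitude or more above the other 5p sequences, and the 3p sequences lie lowest. 2 values of 0 (let-7g 3p in CD16 replicate 2 and let-7a 3p in CD16 replicate 1) are drawn at the lower edge.

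With all their listed isomiRs, let-7f 5p made up 48.7% of the reads of the family, let-7g 5p 27.1%, let-7i 5p 13.1% and let-7a 5p 10.1%. let-7e (0.406%), let-7c (0.301%), miR-98 (0.128%) and let-7d 5p (0.0754%) gave the rest together with the 3p arms. The let-7b sequences outside the choice summed to 1097 ± 465 normalized reads, which was more than let-7e and less than let-7a.

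The level of single-base changes was measured as a background for the members that differ from let-7a by 1 base. At positions 1 to 19 of let-7a there were 54 base changes that no listed sequence carries, and their median level was 0.0124% of canonical let-7a, with a highest value of 0.570%. let-7e (T9G) stood at a median of 3.90% of let-7a over the libraries (range 1.30 to 13.3%) and let-7c (A19G) at 3.00% (range 1.75 to 5.63%). let-7f (G12A) stood at 473%. The unlisted changes of let-7f (56 changes) and let-7g (57 changes) had medians of 0.0135% and 0.0130% of their canonical sequence.

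The share of annotated reads taken by the family was 14.3 ± 2.36% on PD12 (SD, n = 5), 15.8 ± 3.27% on PD16 (n = 5) and 13.2 ± 3.38% on PD20 (n = 6). In cyclic gilts it was 10.8 ± 1.26% on CD12 (n = 4), 15.9 ± 5.52% on CD16 (n = 5) and 12.8 ± 3.97% on CD20 (n = 5). Shares ran from 7.01% to 23.9% and the ranges of the groups overlapped. In normalized reads the family summed to 133707 ± 11303 on PD12, 152184 ± 27884 on PD16 and 134926 ± 16880 on PD20. On CD12, CD16 and CD20 it summed to 129891 ± 30332, 155907 ± 40677 and 118417 ± 42924. The lowest mean was thus on CD12 for the share and on CD20 for normalized reads. The lowest normalized sum was 71760, in CD20 replicate 2, against 108842 in PD20 replicate 1. The lowest share belonged to PD20 replicate 1, in which the smooth muscle miRNAs miR-143 and miR-145 summed to 636004 normalized reads. The striated muscle list summed to 40186 there, and each sum was the highest of the 30 libraries. The striated muscle sum was carried by miR-1 (4635 on average over the 30 libraries), beside 19.9 for miR-499 and 4.41 for miR-206. miR-499 was lower on PD20 (17.4 ± 3.12) than on PD12 (24.2 ± 7.73). The part of these miRNAs in the low share was not tested. No test was made on this sum over the members.

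Levels by group are given for each root (sums of the 5p isomiRs of a root, normalized reads, mean ± SD). Whether roots differed in their change between groups was not tested. let-7f ran from 58896 ± 19505 on CD20 to 78238 ± 18555 on PD16, and let-7g from 26565 ± 8387 on CD12 to 43246 ± 16860 on CD16. let-7a was lowest on CD12 (7740 ± 1762) and highest on CD16 (19395 ± 10923). In pregnant gilts let-7a was 12300 ± 3154 on PD12, 16057 ± 2250 on PD16 and 16062 ± 4061 on PD20. let-7i was highest on CD12 (26428 ± 9716) and lowest on CD20 (11491 ± 3350) and PD20 (11916 ± 3128). The groups with the highest and with the lowest mean were thus not the same for let-7a and let-7i, which is a description only.

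Among the less abundant roots, let-7c had its highest means on PD16 (524 ± 216) and CD16 (523 ± 301) and its lowest on CD12 (271 ± 24.6). let-7e ran from 471 ± 155 on PD20 to 699 ± 119 on CD12, the group in which let-7c was lowest. miR-98 ran from 134 ± 32.5 on PD20 to 210 ± 79.4 on CD20, and let-7d 5p, the steadiest, from 85.6 ± 14.6 on CD12 to 116 ± 19.1 on PD16. The ranges of single libraries of these 4 roots overlapped between most pairs of groups.

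Variation between animals differed widely among the members. let-7d 5p had a coefficient of variation (CV) of 20.5% over the 30 libraries, the lowest of all 873 sequences, and let-7f 5p had the next lowest, 20.7%. let-7e 5p ranked 16th with 27.96%. Without TMM scaling these 3 ranked 8th, 3rd and 11th. let-7g 5p (37.5%), miR-98 5p (40.2%), let-7i 5p (44.7%), let-7a 5p (45.4%) and let-7c 5p (47.0%) were more variable.

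The RT-PCR reference that the study named let-7d-3p is listed among its assays with the 22-nt sequence of let-7d 5p, the member with the lowest CV. let-7d 3p itself had 8.74 ± 5.43 normalized reads and a CV of 62.2%, which ranked 507th. Among the 343 sequences within 2-fold of its level it ranked 183rd, against a median CV of 60.6% there. The 5p arm was 8.67 times as abundant as the 3p arm of let-7d (geometric mean, range 2.64 to 17). For let-7i this ratio was 2037 (range 491 to 5801) and for let-7g it was 9811 (lowest 517), where a library with 0 reads of the 3p arm was given the 1 read added to each side.

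IsomiRs were read from the ends of each listed sequence against its reference, as DEL where bases were missing and ADD where bases were added. Of the 51 5p sequences, 24 were only shortened at the 3′ end, 11 were only lengthened there, 7 had a changed 5′ end, 8 were references and 1 was the C-ended let-7f sequence. let-7f had 13 listed 5p sequences, let-7a and let-7g 9 each, let-7i 6, let-7c 5, let-7e 4, let-7d 3 and miR-98 2. The 9 of let-7a include an 18-nt sequence (3′ DEL AGTT, 16.2 ± 8.74 normalized reads, SD, n = 30) that the list names by let-7a-1, let-7a-2 and let-7c, since it ends before the base at which let-7c differs. The reference gave 88.6% of the listed reads of let-7i 5p and 86.5% of let-7g 5p. It gave 76.3% of let-7a, 75.4% of let-7c, 73.0% of miR-98, 72.8% of let-7e, 72.2% of let-7f and 67.9% of let-7d. Among the listed sequences, loss of bases from the 3′ end was the main departure in all 8 roots, from 10.9% of let-7i to 27.03% of miR-98 reads.

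The 3′ DEL share of let-7a was 23.4 ± 1.34% on PD20 (n = 6) and between 17.2% (CD12) and 20.99% (PD16) in the other groups. That of let-7c was 24.0 ± 1.78% on PD20 and between 16.4% (CD12) and 19.0005% (CD16) elsewhere. Without PD20 replicate 3 the PD20 shares were 23.1 ± 1.23% for let-7a and 23.3 ± 0.62% for let-7c (n = 5), and without replicate 3 the CD16 shares were 18.2 ± 2.23% and 18.9 ± 5.37% (n = 4). Not all roots had their highest mean share on PD20. That of let-7g was higher on PD16, and that of miR-98 was higher on CD16. No test was made of these shares.

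**Figure D3:**
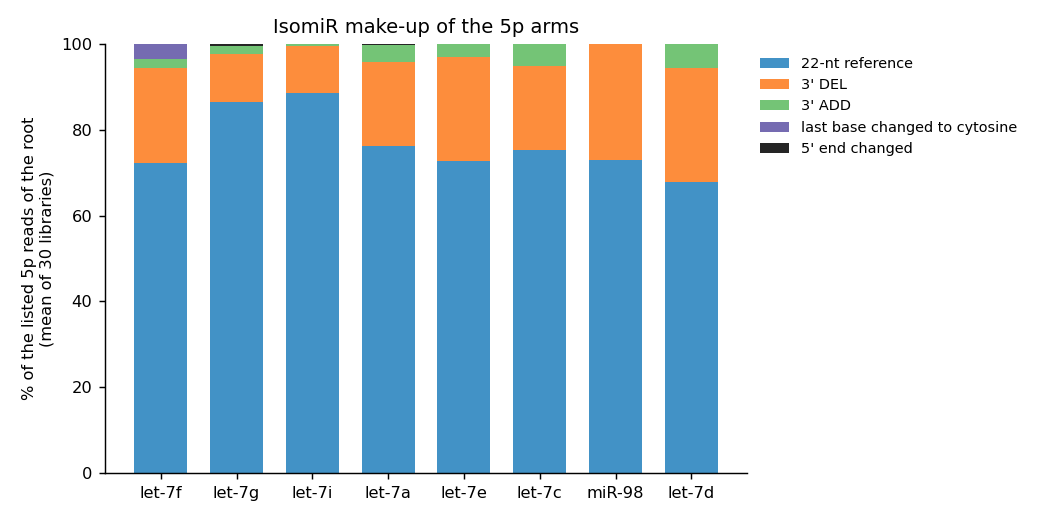
Make-up of the listed 5p reads of each root (stacked bars, percent, mean of 30 libraries) by class of isomiR. The reference sequence gives between 67.9% (let-7d) and 88.6% (let-7i), and sequences shortened at the 3′ end give most of the rest.

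A changed 5′ end moves the seed. The seed TGAGGTA belonged to 4 sequences with a base added (0.124% of the reads of the family) and the seed AGGTAGT to 3 sequences with the first T missing (0.0172%). An example of each is shown, with the bases 2 to 8 in capitals, since these isomiRs would read other target sites than the reference.
let-7g 5p 5′ ADD C, 3′ DEL T: cTGAGGTAgtagtttgtacagt
let-7f 5p 5′ DEL T: gAGGTAGTagattgtatagtt

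The shifted let-7g sequence above had 26.9 ± 15.3 normalized reads and let-7f 5′ DEL T had 12.0 ± 4.71. Of the other 5 shifted sequences, let-7g 5′ ADD C had 124.7 ± 44.5 normalized reads and let-7g 5′ DEL T 7.98 ± 4.07. let-7a 5′ ADD G had 6.62 ± 3.74 and the same sequence with T missing at the 3′ end 12.5 ± 7.10, and let-7f 5′ DEL T, 3′ DEL T had 3.78 ± 2.502. In let-7g the 5′ changed sequences made up 0.433% of the listed reads of the root, in let-7a 0.144% and in let-7f 0.0232%.

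let-7f sequences lengthened at the 3′ end were assigned to a gene copy in the list. ADD T and ADD TT carried the name of let-7f-1 and ADD G and ADD GT that of let-7f-2, and the ratio of the first pair to the second was 7.15 (geometric mean, range 3.08 to 11.8). An untemplated T cannot be told apart from the base of the precursor. The ratio of let-7a 3′ ADD T to canonical let-7a was 0.0493 (range 0.0242 to 0.0985).

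The change over pregnancy was asked first, as D16 and D20 jointly against PD12. None of the 55 members passed the edgeR quasi-likelihood F-test at a Benjamini-Hochberg adjusted p under 0.05 with an absolute log2 fold change (log2FC) over 1, against 0.802% of the 873 sequences. At an unadjusted p under 0.05 there were 11 members, 5 higher and 6 lower on PD16 than on PD12, against 18.7% of all sequences. The likelihood ratio test of edgeR called 3 members (let-7i 3p, let-7a 3′ DEL TT and let-7g 5′ ADD C, 3′ DEL T), against 5.73% of all sequences. DESeq2 called 5, these and the let-7i 5p and let-7g 3p references, also against 5.73%. The median log2FC of the members was 0.26 on PD16 and 0.12 on PD20, beside 0.05 and -0.01 for all sequences. Among members with a mean of at least 10 CPM, the highest log2FCs on PD16 were 1.18 for let-7g 5′ ADD C, 3′ DEL T and 1.04 for let-7g 3′ DEL T, and the lowest -0.88 for let-7i 3′ ADD G and -0.67 for let-7i 5p. On PD20 they were 1.35 for the same let-7g sequence and 1.24 for let-7a 3′ DEL TT, and -0.998 for let-7i 5p and -0.97 for let-7f 3′ ADD TT.

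let-7i 5p had 16537, 17144, 18137, 23079 and 30006 normalized reads in the 5 PD12 libraries. On PD16 it had 10999, 11568, 11687, 14366 and 14737, and on PD20 7745 in the lowest, 9279 in the median and 14461 in the highest of the 6 libraries. Every PD12 library was above every library of PD16 and PD20. The log2FC to PD12 was -0.67 (SE 0.27) on PD16 and -0.998 (SE 0.26) on PD20, with a joint adjusted p of 0.083 in edgeR. Tested alone, PD20 vs. PD12 had an adjusted p of 0.0497, with a log2FC just short of the threshold in size. Without PD20 replicate 3, the highest PD20 library, the log2FC was -1.12, and it was between -1.12 and -0.86 without each library in turn. With sequences averaging under 10 CPM left out of the joint test, let-7i 5p was called, as 1 of 12 sequences (2.22% of 540).

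let-7i 3p, the other strand of the same hairpin, had 6.47, 7.80, 10.99, 18.6 and 22.5 normalized reads on PD12. It had 3.79, 4.13, 5.16, 9.04 and 10.8 on PD16, and 2.08, 4.28 and 5.79 as the lowest, median and highest value on PD20. The PD20 libraries were all below the PD12 libraries, and those of PD16 overlapped with them. The log2FC was -0.95 (SE 0.42) on PD16 and -1.68 (SE 0.41) on PD20, with a joint adjusted p of 0.0706, the lowest among the members in edgeR. In the single contrast of PD20 vs. PD12 it had an adjusted p of 0.0424, and by single contrasts 2 members (let-7i 3p and let-7a 3′ DEL TT) were called, against 2.86% of all sequences.

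When isomiRs were summed by root and arm, let-7i 3p was called with an adjusted p of 0.045, as 1 of 8 called among 246 sums (3.25%). The let-7i 5p sum also had an adjusted p of 0.045 but log2FCs of -0.87 and -0.91, under the threshold. The let-7i 5p sum was 23248 ± 6171 on PD12 (n = 5), 14269 ± 1829 on PD16 (n = 5) and 11916 ± 3128 on PD20 (n = 6).

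let-7a shortened by its last 2 bases (3′ DEL TT) had 68.0, 111, 132, 138 and 178 normalized reads on PD12 and 187, 252 and 541 as the lowest, median and highest on PD20. The groups did not overlap. The log2FC was 1.24 (SE 0.33) with a joint adjusted p of 0.090 in edgeR, and 0.0497 in the single contrast. Without PD20 replicate 3, which held the highest value, the log2FC was 0.97 with a joint adjusted p of 0.223. Canonical let-7a 5p had a log2FC of 0.39 (0.24 without PD12 replicate 5) on PD16 and 0.30 on PD20 (0.15 without PD12 replicate 5 and 0.16 without PD20 replicate 3), and was not called.

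The let-7g sequence with C added at the 5′ end and T missing at the 3′ end had 8.59, 10.9, 13.9, 21.8 and 23.6 normalized reads on PD12. It had 21.7 to 61.9 on PD16 and 21.98 to 60.9 on PD20, which overlapped with PD12. The log2FCs were 1.18 (SE 0.39) and 1.35 (SE 0.37), with a joint adjusted p of 0.103.

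**Figure D4:**
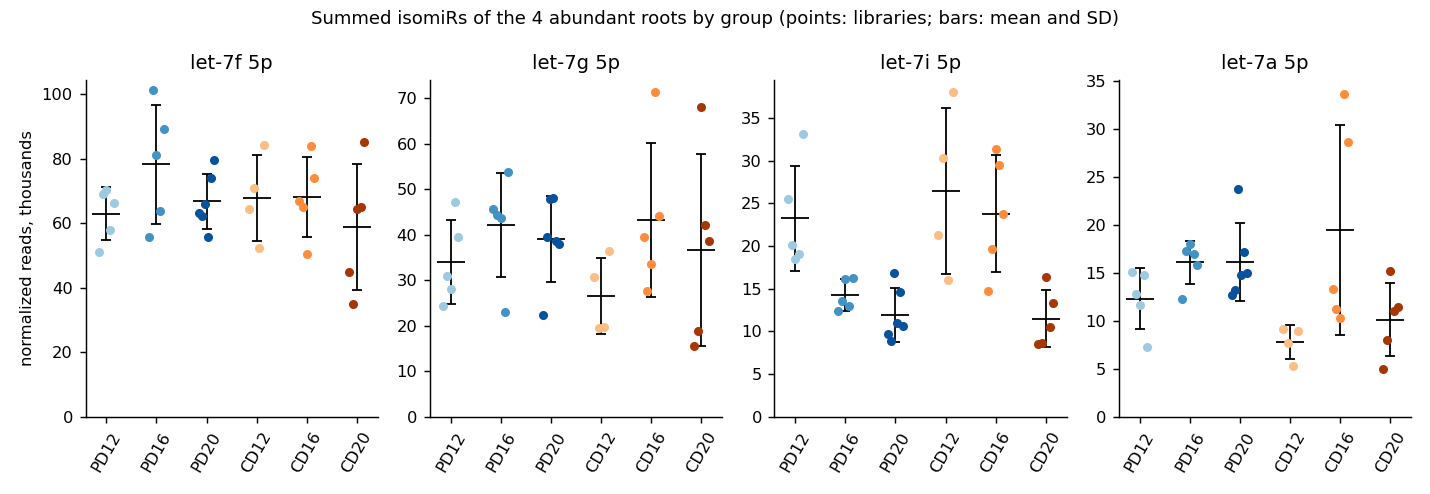
Normalized reads of let-7f, let-7g, let-7i and let-7a 5p with their listed isomiRs summed (y axes), for each library of the 6 groups (x axes), with the mean and SD. The let-7i sum lies between 18448 and 33088 on PD12 and at or below 16860 on PD16 and PD20, whereas the let-7f sums of all 6 groups overlap.

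In the estrous cycle, D16 and D20 were likewise tested jointly against CD12. None of the 55 members was called by the F-test of edgeR, against 0.458% of the 873 sequences. At an unadjusted p under 0.05 there were 17 members, against 23.9% of all, and 14 of the 17 were higher on CD16 than on CD12. The likelihood ratio test called 5, against 9.05% of all, and DESeq2 6, against 9.97% of all, with let-7a 5p, let-7a 3′ ADD T, let-7a 3′ DEL GTT, let-7f 3′ ADD GT and let-7i 5p in both. The median log2FC of the members was 0.43 on CD16 and 0.14 on CD20, beside 0.03 and 0.09 for all sequences. On CD16 the highest log2FCs among members with a mean of at least 10 CPM were 2.23 for let-7a 3′ DEL GTT and 1.57 for 3′ DEL AGTT, the 18-nt sequence that let-7a and let-7c share, and the lowest -0.37 for let-7e 3′ ADD G (-0.59 without CD16 replicate 3 and -0.20 without CD16 replicate 1) and -0.35 for let-7e 3′ DEL T (-0.53 without CD16 replicate 5 and -0.22 without CD12 replicate 2). On CD20 the lowest were -1.29 for let-7f 3′ ADD TT and -1.23 for let-7i 5p, and the highest 1.11 for let-7g 3′ DEL GTT and 1.02 for let-7a 3′ DEL GTT (1.61 without CD12 replicate 2).

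let-7a 5p had 4207, 5694, 6923 and 7324 normalized reads on CD12 and 7715, 8533, 10013, 22495 and 26529 on CD16. All CD16 values were above those of CD12, and replicates 4 and 5 were more than 2-fold above the other CD16 libraries. On CD20 it had 4070, 6265, 8207, 8567 and 11824, which overlapped with both days. The log2FC of CD16 vs. CD12 was 1.38 (SE 0.45, with 1.54 without CD16 replicate 3 and 1.08 to 1.54 without each library in turn), with a joint adjusted p of 0.122 in edgeR, and that of CD20 vs. CD12 was 0.35 (0.15 without CD20 replicate 3, and 0.75 with all deposited reads as library size). The canonical let-7a of pregnant gilts ran from 5785 to 11957 on PD12 and from 9404 to 16876 on PD16 and PD20.

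let-7i 5p had 14781, 19026, 27031 and 34399 normalized reads on CD12 and 12993, 17655, 20487, 25628 and 27686 on CD16. On CD20 it had 7623, 7625, 9283, 11984 and 14305. Each CD20 library was below each CD12 library, while CD16 overlapped with both days. The log2FC of CD20 vs. CD12 was -1.23 (SE 0.38), with a joint adjusted p of 0.121, and -0.81 with all deposited reads as library size.

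In CD20 vs. CD16, none of the 55 members was called by the F-test, against 0.458% of all sequences. Unadjusted, 12 members were under 0.05, 11 of them lower on CD20, against 21.2% of all. The likelihood ratio test called 4, against 6.41% of all, and DESeq2 7, against 8.59%. let-7i 5p had a log2FC of -1.13 (SE 0.36, adjusted p = 0.097, and -0.98 without CD16 replicate 3) and let-7a 5p one of -1.03 (adjusted p = 0.159, and -1.18 without CD16 replicate 3), both in edgeR. The lowest adjusted p was 0.0957, of let-7f 3′ ADD GT (log2FC -1.96), a sequence of 3.62 ± 2.01 normalized reads. Above 10 CPM, the lowest log2FCs were -1.59 for let-7a 3′ ADD TT and -1.36 for let-7f 3′ ADD TT, both lengthened by T, and the highest were 0.39 for miR-98 5p and 0.31 for let-7e 3′ ADD G. Among the CD16 and CD20 libraries, both T-lengthened sequences were highest in CD16 replicate 3 (42.9 and 65.6 normalized reads), and without that library the 4 log2FCs were -1.23, -1.01, 0.29 and 0.52. Without each library in turn miR-98 5p ranged from 0.19 (without CD20 replicate 5) to 0.72 (without CD16 replicate 5), and let-7e 3′ ADD G was 0.13 without CD16 replicate 1.

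In PD20 vs. PD16, none of the 55 members was called by the F-test, the likelihood ratio test or DESeq2, while these called 0.573%, 2.41% and 1.72% of all sequences. Unadjusted, 3 members were under 0.05, against 14.2% of all. The lowest adjusted p was that of miR-98 5p, 0.261 in edgeR with a log2FC of -0.71 (SE 0.28), which was -0.46 without PD16 replicate 5. It had 90.6 to 259 normalized reads on PD16 and 65.6 to 127 on PD20. let-7e 3′ ADD G had a log2FC of -0.72, and let-7a 3′ DEL TT and DEL GTT had 0.70 and 0.57. Without PD20 replicate 3 these were -0.57, 0.43 and 0.495.

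Pregnancy and cycle were then compared on each day. In PD12 vs. CD12 no member was called by the F-test, the likelihood ratio test or DESeq2, which called 0%, 0.115% and 0% of the 872 sequences with reads. There were 2 members with an unadjusted p under 0.05, let-7c 3′ DEL TT and let-7a 3′ DEL GTT, against 6.08% of all. let-7c 3′ DEL TT had 9.96 to 13.1 normalized reads on PD12 and 3.30 to 6.57 on CD12, with a log2FC of 1.18 (SE 0.40) and an adjusted p of 0.677 in edgeR. let-7a 3′ DEL GTT had a log2FC of 1.73 (SE 0.56) with the same adjusted p. At a mean of at least 10 CPM the lowest log2FCs were -0.49 for let-7e 5p and -0.41 for the C-ended let-7f (-0.24 without CD12 replicate 4). With all deposited reads as library size they were -0.22 and -0.14.

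In PD16 vs. CD16 no member was called by any of the 3 tests, which called 0%, 0.573% and 0.803% of all sequences. Without PD16 replicate 1 the F-test called 36 of the 872 sequences and again no member. There were 6 members with an unadjusted p under 0.05, all lower in pregnancy, against 10.9% of all. The lowest adjusted p was 0.281, of let-7i 3′ ADD G (log2FC -1.16, SE 0.36), which had 51.6 to 82.3 normalized reads on PD16 and 71.3 to 211 on CD16. let-7g 3′ ADD T had a log2FC of -1.07 and let-7i 5p one of -0.75, both with an adjusted p of 0.412. At a mean of at least 10 CPM the highest were 0.77 for let-7e 3′ ADD G and 0.52 for let-7g 5′ ADD C, 3′ DEL T (0.19 without PD16 replicate 5).

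In PD20 vs. CD20, the comparison with the most calls of the 8 (1.49% of all sequences), none of the 55 members was called by the F-test. Unadjusted, 11 members were under 0.05 (8 higher and 3 lower in pregnancy), against 28.5% of all. The likelihood ratio test and DESeq2 each called the same 4 members, let-7a 3′ DEL TT, let-7f 3′ ADD GT, let-7g 3p and let-7i 3′ DEL TT, against 14.2% and 15% of all sequences. The median log2FC of the members was 0.16, beside -0.03 for all.

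let-7i 3′ DEL TT had 159, 177, 186, 205 and 221 normalized reads on CD20 and 266, 299 and 669 as the lowest, median and highest on PD20. The groups did not overlap, which was so for 3 of the 55 members and 42 of the 873 sequences. The log2FC of let-7i 3′ DEL TT was 1.05 with an adjusted p of 0.0665 in edgeR. The let-7i reference itself had a log2FC of 0.04 (adjusted p = 0.934). Without PD20 replicate 3, which held its highest value, the log2FC was 0.82 with an adjusted p of 0.136. Without PD20 replicate 4, let-7i 3′ DEL TT and let-7f 3′ ADD GT were called, against 13.3% of all sequences. Without CD20 replicate 5 only let-7f 3′ ADD GT was, against 59 of the 873 sequences. Without each of the other 9 libraries no member was called, against 5 to 104 of the 873 sequences (104 without CD20 replicate 4).

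let-7a 3′ DEL TT had 62.9, 108, 110, 130 and 222 normalized reads on CD20, which overlapped with the 187 to 541 of PD20. Its log2FC was 1.24 (SE 0.40) with an adjusted p of 0.0665, and 0.97 without PD20 replicate 3. let-7g 3p had 0.415 to 3.91 normalized reads on PD20 and 0.931 to 28.02 on CD20, with a log2FC of -2.05 and an adjusted p of 0.0827. Its highest value was that of CD20 replicate 1, without which the log2FC was -0.77 with an adjusted p of 0.462. let-7a 3′ DEL GTT had a log2FC of 1.13 (adjusted p = 0.110), miR-98 5p one of -0.79 (adjusted p = 0.140) and let-7f 3′ DEL AGTT one of -0.31, which was -0.0062 without CD20 replicate 5.

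Whether the change from D12 differed between pregnancy and cycle was tested as a status by day interaction over all 30 libraries. None of the 55 members had an adjusted p under 0.05 in the F-test or the likelihood ratio test, against 0.115% of all sequences in the F-test and 5.04% in the likelihood ratio test. DESeq2 called 3, against 6.41% of all. Unadjusted, 8 members were under 0.05, against 17.8% of all. The lowest adjusted p was 0.114, of let-7i 3′ DEL TT, whose change from D12 to D20 was higher in pregnancy by a log2FC of 1.27 (SE 0.44), by 1.04 without PD20 replicate 3 and by 0.73 with all deposited reads as library size. Without both libraries low in C ends no member was called in the F-test of the interaction, and none of the 873 sequences was. The change of let-7f 3′ DEL TT from D12 to D20 was higher in pregnancy by 1.15, and by 0.63 with all deposited reads as library size. From D12 to D16 the change of let-7a 3′ DEL GTT was lower in pregnancy (log2FC -2.34, SE 0.73, adjusted p = 0.117, and -2.59 without CD16 replicate 3), as was that of let-7a 3′ ADD T (log2FC -1.57).

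**Figure D5:**
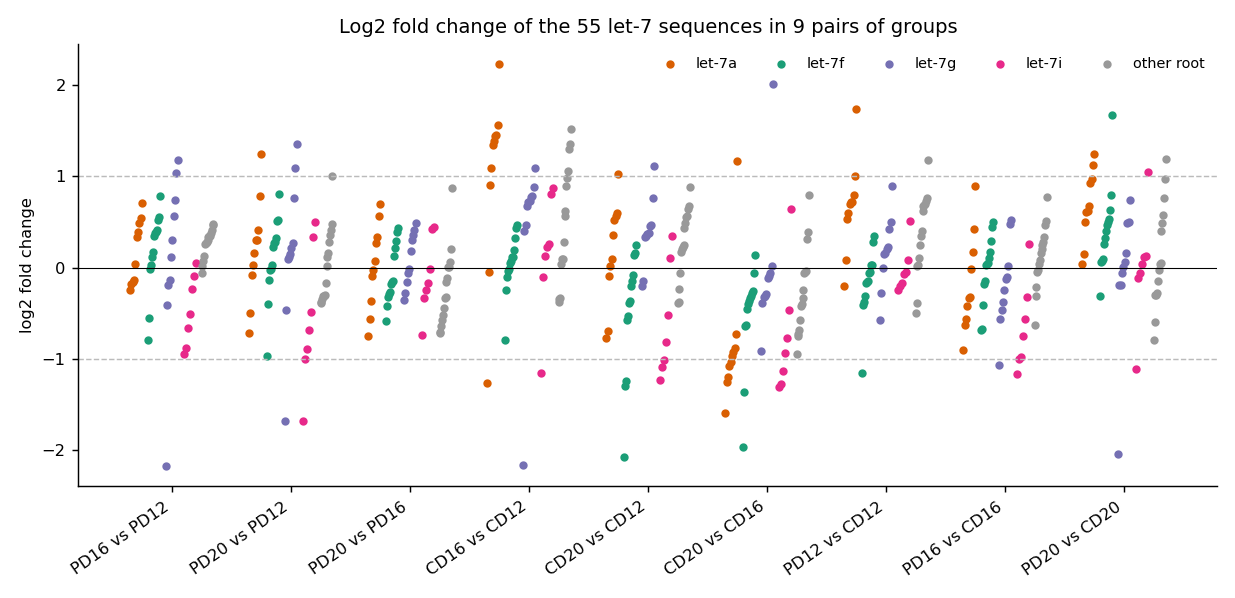
The log2FC of the 55 members (points) in each of the 9 pairs of groups (x axis), with dashed lines at 1 and -1. Most members lie between the lines in every pair, and none was called in the joint tests over days or in the other contrasts of the F-test.

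Ratios within a hairpin or root do not depend on scaling between libraries, and 45 such comparisons were made with an exact permutation test (two-sided). None had a Benjamini-Hochberg adjusted p under 0.05, and 6 were under 0.05 unadjusted. The smallest p that these group sizes allow was between 0.00433 (6 against 5 libraries) and 0.0159 (5 against 4), so that a lone ratio could not have passed the adjustment over 45 tests. The lowest was the 5p to 3p ratio of let-7i, which was 491 to 1921 on CD20 and 2274 to 5708 on CD16. The groups did not overlap (log2 difference -1.73, exact permutation p = 0.008, adjusted 0.357). The ratio of let-7g was 7482 to 47527 in 4 CD16 libraries and 657 to 6831 on CD12. The remaining CD16 library (replicate 2) had 0 reads of let-7g 3p, and its value rests on the 1 read added. The log2 difference was 2.87 (exact permutation p = 0.016, adjusted 0.357). let-7g 3p reached the minimum of reads of the list only through CD12, a group in which it was high. The comparison of CD16 with CD12 rests on that choice, and no conclusion is drawn from it. Without PD20 replicate 3 and CD16 replicate 3, 2 of the 45 were under 0.05 unadjusted.

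Related miRNAs were followed for context. Of the 7 let-7b sequences none was called in any comparison by the F-test, with a median log2FC of 0.75 on CD16 and 0.21 on CD20 against CD12. Of the 43 sequences of miR-99a, miR-99b, miR-100, miR-125a and miR-125b, which neighbour let-7 genes, none was called either, with medians of 0.92 and 0.52. Across the 30 libraries let-7c had r = 0.65 with miR-125b and r = -0.08 with its neighbour miR-99a. let-7e had r = 0.46 with miR-125a and r = -0.32 with miR-99b, both its neighbours, and let-7a had r = 0.32 with miR-100 and 0.43 with miR-125b. The points of these correlations share libraries and depth and the values are a description.

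Among the 5p references the correlations over the 30 libraries ran from -0.29 (let-7e with let-7g) to 0.69 (let-7a with let-7g). The annotated sequences outside the family whose levels most resembled the summed family were miR-151 (r = 0.77), miR-200b (22-nt form, r = 0.73), miR-28 (r = 0.72), miR-200b (24-nt form, r = 0.72) and miR-106b (r = 0.68), of 505 compared over 30 libraries.

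Markers of the cells in the tissue were summed in each group. All 7 epithelial roots (the miR-200 group, miR-203 and miR-205) were found. Their sum was 12606 ± 2890 normalized reads on PD12, 13213 ± 2406 on PD16 and 11744 ± 3183 on PD20, and 9830 ± 1618, 13309 ± 3507 and 8377 ± 2216 on CD12, CD16 and CD20. It was carried by miR-200c (5209 on average over the 30 libraries), miR-200b (4701) and miR-203 (1066). The other 4 roots were higher on CD20 than on PD12, as miR-200a was (332 ± 107 against 249 ± 73.6), unlike the sum. The sum had r = 0.67 with the family and r = 0.30 with let-7i. Of 5 leukocyte roots 4 were found (miR-142, miR-150, miR-155 and miR-146a, the most abundant being miR-146a-5p with 133.1 normalized reads), while miR-223 was not among the annotated names. Their sum was 190 ± 67.2 on PD12, 233 ± 81.8 on PD16 and 312 ± 116 on PD20, and 208 ± 64.8, 145 ± 59.6 and 440 ± 93.0 on CD12, CD16 and CD20. CD20 (333 to 565) did not overlap with CD16 (69.4 to 236), and the sum ran against let-7i (r = -0.55). Erythrocyte miRNAs (miR-451, miR-144 and miR-486, all found) had r = -0.05 with the family and -0.19 with let-7i, and smooth muscle miRNAs r = -0.30 and 0.02. Of 5 striated muscle roots 3 were found, with r = -0.05 and -0.23, and miR-133a and miR-133b were not matched by name. The striated muscle sum was nearly all miR-1 (4635 on average, beside 19.9 for miR-499 and 4.41 for miR-206). The embryonic miR-302, which the list names by gene IDs and which was matched by the sequence of its assay, had reads in 6 of 6 PD20 libraries (17.8 ± 18.2 normalized reads, range 2.37 to 41.2), 3 reads in 2 of the CD20 libraries and 0 reads in the other 4 groups. Its part in the let-7 levels of PD20 was not tested. The part of leukocytes or epithelium in the let-7i levels was not tested.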

How the data were processed

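Endometrial RNA of 30 gilts was sequenced with a NEXTflex small RNA kit in 3 multiplex pools. The deposited tables hold raw read counts per distinct sequence, made by the authors from quality-filtered, adapter-trimmed and collapsed reads, with no normalization. The members and gene lists were chosen with earlier results of these data known. Names came from the list of 873 sequences annotated by the study, and counts were joined by exact match. Library size was the sum of annotated reads (1574834 to 5241838), scaled by TMM in edgeR 4.0.16 (R 4.3.3). Within each status both later days were set against D12 in a joint test, other contrasts singly, and each P vs. C day was fitted alone, with the quasi-likelihood F-test over all sequences. Calls required p under 0.05 after Benjamini-Hochberg adjustment and more than 1 log2 unit of change (interaction, adjusted p alone), at a prior count of 0.125. SE is the log2FC divided by the root of F. Ratios (1 read added to each side) were tested by exact permutation in scipy 1.17.1. Labels name biological replicates, 1 library per animal, and no 2 libraries agreed within sampling noise. Reads carry no molecular identifiers, so counting error is a lower limit. Named members were the canonical sequences, the members called, the 5′ shifted ones and, per comparison, the 2 highest and 2 lowest log2FCs at a mean of at least 10 CPM. Others (lowest adjusted p, called in an alternative, C end) were picked after their values were seen. Alternatives were the likelihood ratio test, DESeq2 1.42.0, RLE scaling, other library sizes and filters, summed isomiRs, blocks, 1 fit of all groups and leaving out each library.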

Additional observations from a re-analysis of the deposited data

Results flagged for a closer look

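In 84 sets of values (a member or sum within a group of 4 to 6 libraries), 4 had a library that stood far from the rest, where chance gives about 1 in 20. let-7d 3p had 22.7 normalized reads in PD16 replicate 4, against 4.17 to 7.74 in the other 4 libraries. let-7e 5p had 396 in CD12 replicate 1, against 553 to 578. let-7g 3p had 23.6 in CD12 replicate 2, against 4.12 to 5.48, and 28.02 in CD20 replicate 1, against 0.931 to 5.01.

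Other values came from reads outside the list. Of all reads that began with the first 18 bases of a member, a median of 14.6% (range 10.95 to 18.5%) fell on sequences that the list does not hold. The 22-nt let-7i sequence with A added reached a median of 35.6% of the reference (range 26.7 to 51.8%) and that with T added 17.6% (range 13.1 to 32.4%), and neither is in the list. The A-added form of let-7f was at 5.35% and that of let-7g at 1.66%. With all sequences that begin with its first 20 bases, let-7i had 37176 ± 9756 normalized reads on PD12, 23880 ± 2747 on PD16 and 19959 ± 4500 on PD20, and 42406 ± 15400, 39107 ± 9715 and 18807 ± 4566 on CD12, CD16 and CD20, a count chosen after seeing the data.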

How the results depend on the processing

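The 8 counts of called members were 0 with RLE scaling, all deposited reads as library size, all deposited sequences and the replicate block. Of all sequences tested, these settings called 0 to 11, 0 to 16, 0 to 31 and 0 to 5 in the 8 comparisons. Same-numbered animals of different groups did not deviate together on average (mean r = -0.028 over 70 pairs, range -0.70 to 0.71). A mean over pairs cannot show whether some libraries shared a step of processing. Under the replicate block 0 members were called over pregnancy and over the cycle, against 3 and 0 of the 873 sequences. Beside each count of members called stands, in brackets, the number called of all sequences tested. Over pregnancy, 3 (of 50) were called by the likelihood ratio test, 5 (of 50) by DESeq2, 2 (of 25) by single contrasts, 1 (of 12) with a mean of at least 10 CPM (let-7i 5p), 1 (of 8) with isomiRs summed, and 0 to 1 without 1 library (let-7i 3p, of 22, without PD12 replicate 3). Over the cycle these were 5 (of 79) by the likelihood ratio test, 6 (of 87) by DESeq2, 6 (of 68) in 1 fit of all libraries and 1 (of 11) with the title numbers in 3 blocks of 12. In CD20 vs. CD16 they were 4 (of 56), 7 (of 75) and 5 (of 64) for the likelihood ratio test, DESeq2 and 1 fit. In PD20 vs. CD20 they were 4 (of 124), 4 (of 131) and 3 (of 98). Without 1 library 0 to 2 were called there (2 of 116 without PD20 replicate 4, 1 of 59 without CD20 replicate 5, 0 of 104 without CD20 replicate 4). DESeq2 called 3 (of 56) in the interaction. The cause was not tested.

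Of 54 alternatives for the share of the family, 50 moved it by less than 1 SD. With all deposited reads as denominator it was 11.3% on PD12, 12.6% on PD16 and 8.64% on CD12, and with sequences sharing 18 bases of a member 12.8% on CD12. Of 168 log2FCs followed, 123 kept their sign throughout and 23 were called in some alternative. A call in a joint test counts here for each day followed, also where the log2FC of that day was under the threshold. All deposited reads as library size moved the median of all sequences by 0.39 for CD20 vs. CD12, 0.25 for CD20 vs. CD16, 0.28 for PD12 vs. CD12, -0.23 for PD20 vs. CD20, and -0.24 (D16) and -0.52 (D20) for the interaction, where let-7i 3′ DEL TT went from 1.27 to 0.73. Members under 10 CPM rest on few reads.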
